A study of Mus musculus with 12 samples.

Results

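The set described here is the genes whose RNA was well represented in hepatocyte preparations of mice without a tumour, 8434 of the 15910 genes in the deposited table, and the measurement is how far a tumour's effect on each of them differed between 2 times after injection. A gene was kept where its mean normalized count over the 6 PBS libraries was at least 100. The set is called the hepatocyte set below, although it also holds genes that mark other liver cells, such as endothelial and Kupffer cells. The genes were selected on these PBS means alone. For each gene the interaction was the difference between tumour and PBS at day 21 minus the same difference at day 4, on the log2(value + 1) scale, so that a positive interaction says that the tumour effect was more positive at day 21. The genes nearest the limit were Slc36a4 and Tspan33 just inside, with PBS means of 100.002 and 100.155 and interactions of 0.89 and -0.01, and Tbc1d30 and 4933404O12Rik just outside, with PBS means of 99.8 and 99.9 and interactions of -0.35 and 0.22. Because the limit was set on all 6 PBS libraries, 111 of the 8434 genes had a mean under 100 in the PBS mice of day 4 and 81 had one in the PBS mice of day 21.

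RNA sequencing of polyadenylated RNA had been done on hepatocytes dissociated from perfused livers of female Balb/c mice, 8 weeks old when treated. Cells of the breast cancer line 4T1 were placed orthotopically in one arm and PBS was given in the other, and mice were killed 4 or 21 days later. The 4 groups held 3 mice each, and the PBS groups were the background at each time. No label gives tumour size, spread to the liver or the purity of the hepatocytes. Values of single mice are given in the order of their labels. At day 4 these are mice 4, 5 and 6 with PBS and mice 1, 2 and 3 with the tumour. At day 21 they are mice 10a, 11a and 12b with PBS and mice 7, 8b and 9a with the tumour.

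The liver answers a distant tumour or inflammation through an acute-phase response, in which interleukin-6 and related cytokines bind receptors that share the gp130 chain, activate STAT3 and raise the secretion of plasma proteins such as haptoglobin and serum amyloid A. Hepatocytes also carry the body's main enzymes for drug and hormone oxidation, conjugation, retinoid storage and lipid handling, and the nuclear receptor HNF4-alpha is among the regulators of their genes. Many of these enzyme genes are known to be lowered by inflammatory cytokines. An interaction between treatment and time asks which genes of either kind responded differently early and late.

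The libraries held between 9375095 and 21809166 reads in genes, with none of 15 defining hepatocyte transcripts at 0 in any of them. The sum of these 15 was 11.97%, 12.8% and 14.2% of reads in the tumour mice of day 21, below the 14.8% to 19.2% of the other 9 libraries. The part of this difference in the negative interactions was not tested. Tumour libraries of day 21 stood apart: their median Pearson correlation with the other libraries was 0.830 for mouse 7, 0.926 for mouse 8b and 0.937 for mouse 9a, against 0.961 to 0.973 for the other 9 libraries. Transcripts of other cells were present. Neutrophil markers took 0.216% to 0.935% of reads in the tumour mice of day 21, against 0.0346% to 0.0586% in the tumour mice of day 4, 0.0261% to 0.0371% in the PBS mice of day 4 and 0.0246% to 0.0296% in the PBS mice of day 21. In such bulk samples a lower value can come from fewer cells of a type or from less RNA per cell, and these cannot be told apart.

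Interactions in the hepatocyte set were mostly small. Their median was -0.03, or 0.02 when libraries were rescaled by the median ratio over these genes, with an interquartile range of -0.25 to 0.20, and 3921 of the 8434 were above 0, which is 46.5% against 53.2% of all 12631 genes tested. An interaction of 1 or more was found in 226 of the 8434 genes, where the share over all genes tested was 11.8%, and one of -1 or less in 145, where the share over all genes tested was 2.11%. The PBS limit uses values that enter the interaction, so a difference between these shares is set in part by the limit.

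In limma's moderated test with Benjamini-Hochberg adjustment over all 12631 genes, 16 of the 8434 genes had a significantly positive interaction and 3 a significantly negative one. The shares called over all genes tested were 0.641% for positive and 0.0475% for negative interactions, against 0.190% and 0.0356% of the hepatocyte set. Adjusted p-values of the 19 ran from 0.0274 to 0.04999, close to the threshold of 0.05. A further 15 positive and 14 negative interactions had an adjusted p between 0.05 and 0.1. At an unadjusted p under 0.05 there were 366 positive and 472 negative interactions, beside 9.13% and 4.22% of all genes tested. The number of calls depended on the test: edgeR's quasi-likelihood test on reads recovered from the deposited values called 0 of the 8434 genes at an adjusted p under 0.05, with 862 at an unadjusted p under 0.05, whereas DESeq2 called 79 positive and 60 negative. It also depended on single mice, since leaving out mouse 5, 3, 10a, 11a or 12b left 0 calls. Without mouse 7, the library least like the others, 10 positive and 0 negative interactions were called, and Retsat stood at -1.93, Gstt3 at -1.88 and Lipc at -1.16. The 19 genes kept the sign of their interaction in each of 22 alternative fits. Those fits reuse the values on which the 19 were picked, so a kept sign was favoured in advance and is not independent support.

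The components of the interaction were unequal. Tumour and PBS mice differed at day 21 in 169 genes that were higher and 267 that were lower with the tumour, beside 5.42% and 2.44% of all genes tested, by limma at an adjusted p under 0.05. At day 4 the count was 0 in the set and 0% over all genes tested, with 607 of the 8434 genes at an unadjusted p under 0.05, beside 6.02% of all genes tested, and 1 gene called by DESeq2. PBS mice of day 21 and of day 4 likewise differed in 0 genes and 0% of all genes tested, with 303 at an unadjusted p under 0.05, beside 3.99% of all genes tested, and 5 called by DESeq2. The 3 tumour mice of day 21 lay above all 9 other mice in 277 of the 8434 genes and below them in 721, beside 9.03% and 6.34% of all genes tested. The plot of one effect against the other shows the wider spread at day 21.

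**Figure D1:**
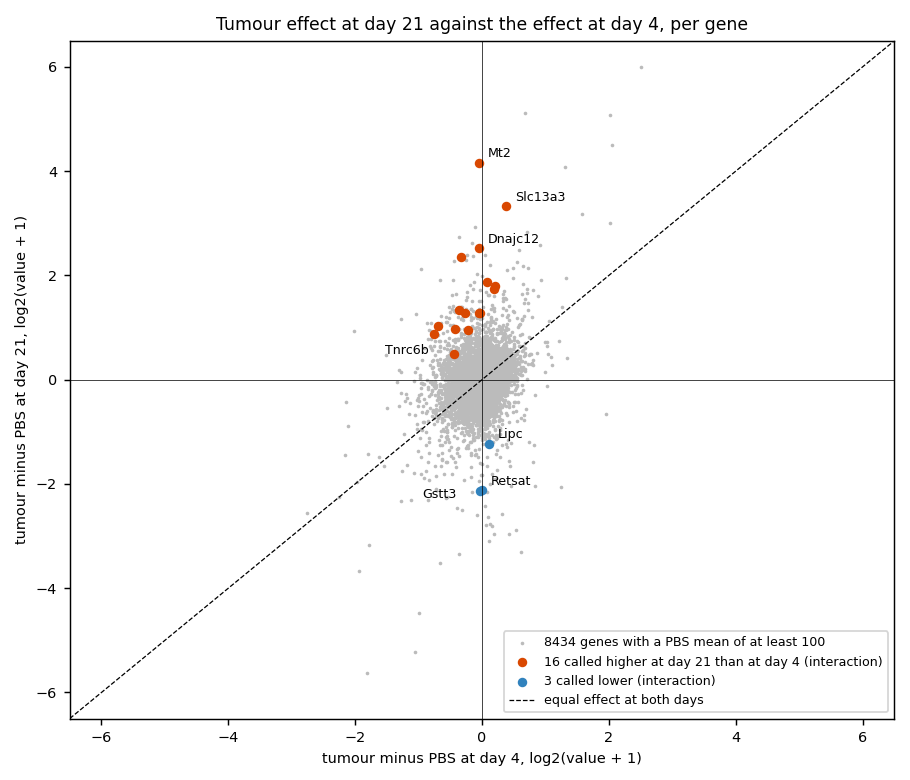
Each grey point is 1 of 8434 genes, with the tumour minus PBS difference at day 4 on the horizontal axis and at day 21 on the vertical axis, both in log2(value + 1); orange and blue points are the 16 positive and 3 negative interactions called by limma, and the dashed line marks equal effects. The called genes had day-4 differences between -0.76 and 0.38 and lie above or below the dashed line.

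The highest called interaction was that of Mt2 (ENSMUSG00000031762; GRCm38 chr8:94172664-94173568, plus strand), which encodes metallothionein, a small cysteine-rich protein that binds zinc and copper and is induced by metals, glucocorticoids and inflammation. Its normalized count was 1293, 2735 and 1156 in the PBS mice and 2965, 1142 and 1076 in the tumour mice of day 4. At day 21 it was 289, 213 and 153 in the PBS mice and 2358, 5607 and 4126 in the tumour mice. With the tumour it was higher than in every PBS mouse of day 21, but its day-21 tumour values overlapped those of day 4, and the PBS mice of day 21 were lower than all 6 mice of day 4. The interaction was 4.21 (SE 0.66, 95% interval 2.77 to 5.65, limma adjusted p = 0.0274), made of a tumour effect of 4.16 at day 21 and -0.06 at day 4. The value for PBS at day 21 minus PBS at day 4 was -2.91 (limma adjusted p = 0.694). The neighbouring gene Mt1 had an interaction of 2.64 (adjusted p = 0.138) and counts of 4619, 11309 and 6596 with PBS and 13844, 2957 and 5112 with tumour at day 4, and 2707, 2055 and 1583 with PBS and 6967, 15452 and 11952 with tumour at day 21.

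Mt2 is known as a target of the metal-responsive factor MTF1, which binds metal response elements. The pattern searched here was TGCNCNC, with N for any base. It is looser than the core of these elements, so a match need not be one of them. The promoter of Mt2, from 250 bases before to 50 after the start in RefSeq (GRCm38.p6, chr8:94172368-94172667, plus strand), is shown because Mt2 led the called genes, with matches to TGCNCNC on either strand in capitals:
Mt2: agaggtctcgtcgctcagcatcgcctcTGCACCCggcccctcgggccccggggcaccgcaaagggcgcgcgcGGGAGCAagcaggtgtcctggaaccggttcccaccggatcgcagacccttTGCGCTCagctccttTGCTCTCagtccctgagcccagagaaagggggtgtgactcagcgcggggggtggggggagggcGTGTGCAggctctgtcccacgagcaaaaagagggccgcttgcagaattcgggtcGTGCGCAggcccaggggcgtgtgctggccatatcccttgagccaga
It held 6 matches, a number reached or exceeded by 74 of 32544 RefSeq promoters of this length (0.227%). Of genes with a promoter in the table, 53.6% had at least 1 match in any of their promoters, as did 7 of the 14 genes with a positive call for which one was at hand. A match describes the letters only.

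Slc13a3 (ENSMUSG00000018459; chr2:165405028-165473230, minus strand), a sodium-coupled transporter of dicarboxylates such as succinate, was the next called gene by size, with an interaction of 2.95 (SE 0.56, adjusted p = 0.0456). Its counts were 178, 222 and 133 in the PBS mice and 169, 320.5 and 216 in the tumour mice of day 4. At day 21 they were 292, 101 and 212 in the PBS mice and 1844, 2787 and 1256 in the tumour mice. The 3 tumour mice of day 21 lay above all other mice, and none of the remaining 9 exceeded 321. This gene belonged to the list of pericentral hepatocyte genes, whose 19 members had a median interaction of -0.09, a value that was positive in 3 of the 22 alternatives.

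Dnajc12 (ENSMUSG00000036764; chr10:63382443-63410576, plus strand), a co-chaperone of phenylalanine hydroxylase and related enzymes, had counts of 149, 160.1 and 159 in the PBS mice and 115, 208 and 144 in the tumour mice of day 4. The day-21 counts were 127, 174 and 154 in the PBS mice and 782, 1719 and 491 in the tumour mice. The day-4 and PBS mice formed a narrow band and the tumour mice of day 21 stood clear of it. The interaction was 2.57 (SE 0.51, adjusted p = 0.0482), with a day-4 difference of -0.05.

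Receptors and signalling enzymes among the positive calls are given together, a grouping made after the calls were known. The lists of IL-6 and STAT3 signalling, of IL-1, TNF and NF-kB signalling and of hepatocyte growth receptors held 0 called genes each. Plxnb1, a receptor for semaphorins, had counts of 350.1, 371 and 566 with PBS and 485, 487 and 362 with tumour at day 4, and 223, 281 and 189.8 with PBS and 641, 1199 and 783 with tumour at day 21, and its interaction was 1.81 (SE 0.35, adjusted p = 0.0456). Its day-21 tumour mice were above the other 9, and its value between PBS days was -0.87. For Adora1, an adenosine receptor, the counts were 263, 295 and 284 with PBS and 239, 231 and 189.5 with tumour at day 4, and 233, 235 and 183 with PBS and 547, 717 and 408 with tumour at day 21. Its interaction of 1.69 (SE 0.27) had an adjusted p of 0.0274, and again the day-21 tumour mice did not overlap the others. Jak3, the kinase of cytokine receptors with the common gamma chain and best known from lymphocytes, had counts of 111, 189 and 179 with PBS and 192, 169 and 177 with tumour at day 4, and 165, 132 and 142 with PBS and 658, 454 and 444 with tumour at day 21, with an interaction of 1.60 (SE 0.30, adjusted p = 0.0426). T and NK cell markers, none of whose 12 members in the table reached a PBS mean of 100, took 0.000469% to 0.00358% of reads in the tumour mice of day 21 and at most 0.000358% in the other 9. Mouse 7 was highest both for them and for Jak3. Neutrophil marker shares in mice 7, 8b and 9a, 0.935%, 0.340% and 0.216%, had the same order as Jak3. The part of these cells in the value of Jak3 was not tested. Plce1, a phospholipase that cleaves phosphoinositides, had an interaction of 1.54 (adjusted p = 0.0315), but its day-21 tumour values of 336 to 439 overlapped the day-4 PBS values of 242 to 398, while the PBS mice of day 21 had 143 to 182.

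Cytoskeletal, membrane and other genes were also among the positive calls. Myh9, the heavy chain of a non-muscle myosin, had counts of 2167, 2215 and 1942 with PBS and 2158, 1952 and 2079 with tumour at day 4, and 1876, 2102 and 1721 with PBS and 5438, 4513 and 3978 with tumour at day 21, with an interaction of 1.31 (SE 0.21, adjusted p = 0.0274). Its 9 other mice lay within 1721 to 2215, all below the tumour mice of day 21. Mice 7, 8b and 9a had the same order in the neutrophil marker share, 0.935%, 0.340% and 0.216%. The part of other cells in the value of Myh9 was not tested, and without mouse 7 its interaction was 1.19. Fndc3b, a fibronectin-domain protein of the endoplasmic reticulum, had counts of 315, 428 and 418 with PBS and 388, 543 and 393 with tumour at day 4, and 324, 284 and 318 with PBS and 988, 1373 and 815 with tumour at day 21, with an interaction of 1.56 (adjusted p = 0.0371). The counts of Csad, which makes hypotaurine for taurine synthesis, were 366, 366 and 323 with PBS and 209, 320.5 and 266 with tumour at day 4, and 602, 486 and 660.2 with PBS and 901, 1329 and 1233 with tumour at day 21. In this gene the tumour values were lowest at day 4 and highest at day 21, and the value between PBS days was 0.72, so the interaction of 1.40 (SE 0.27, adjusted p = 0.0455) combined a day-4 value of -0.43 with a day-21 value of 0.98. Myadm, a membrane protein first described in myeloid cells, and Rnf24, a RING finger protein, had the most negative day-4 values of the 19, -0.69 and -0.76, with interactions of 1.72 (adjusted p = 0.0456) and 1.64 (adjusted p = 0.0488). In both, tumour mice of day 21 were above the other 9. Counts of Rnf24 were 90.7 to 169 in the PBS and 67.8 to 83.5 in the tumour mice of day 4, and 91.7 to 123 and 179.6 to 246 at day 21. Counts of Myadm were 139.5 to 201 in the PBS and 102 to 127 in the tumour mice of day 4, and 142 to 181 in the PBS and 256 to 482 in the tumour mice of day 21. The highest was mouse 7, and without that mouse the interaction of Myadm was 1.44. Further positive calls, named because so few genes were called, were Asap3 (1.33, adjusted p = 0.0456), a regulator of Arf GTPases, the carboxypeptidase gene Cpd (1.18, adjusted p = 0.0456) and Tnrc6b (0.94, adjusted p = 0.04999), a partner of Argonaute in microRNA silencing. Asap3 had 248 to 359.5 and Cpd 589 to 905 in the tumour mice of day 21, above 104 to 146 and 339.6 to 392 in the PBS mice of that day. In Tnrc6b the tumour mice were below the PBS mice at day 4, 419 to 455 against 507 to 637, and above them at day 21, 566 to 733 against 461 to 491.

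Among the 16 positive calls, 12 had a negative tumour value at day 4. A negative difference between PBS mice of day 21 and of day 4 was found in 14. No single gene passed the test in either of those comparisons. Each of these differences enters the interaction with a minus sign, so calling genes on a high interaction favoured negative values in advance. The counts of 12 and 14 are therefore not independent findings. A value between PBS days of more than 0.5 in size was found in 4 of the 19 called genes, Mt2, Plxnb1, Plce1 and Csad.

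**Figure D2:**
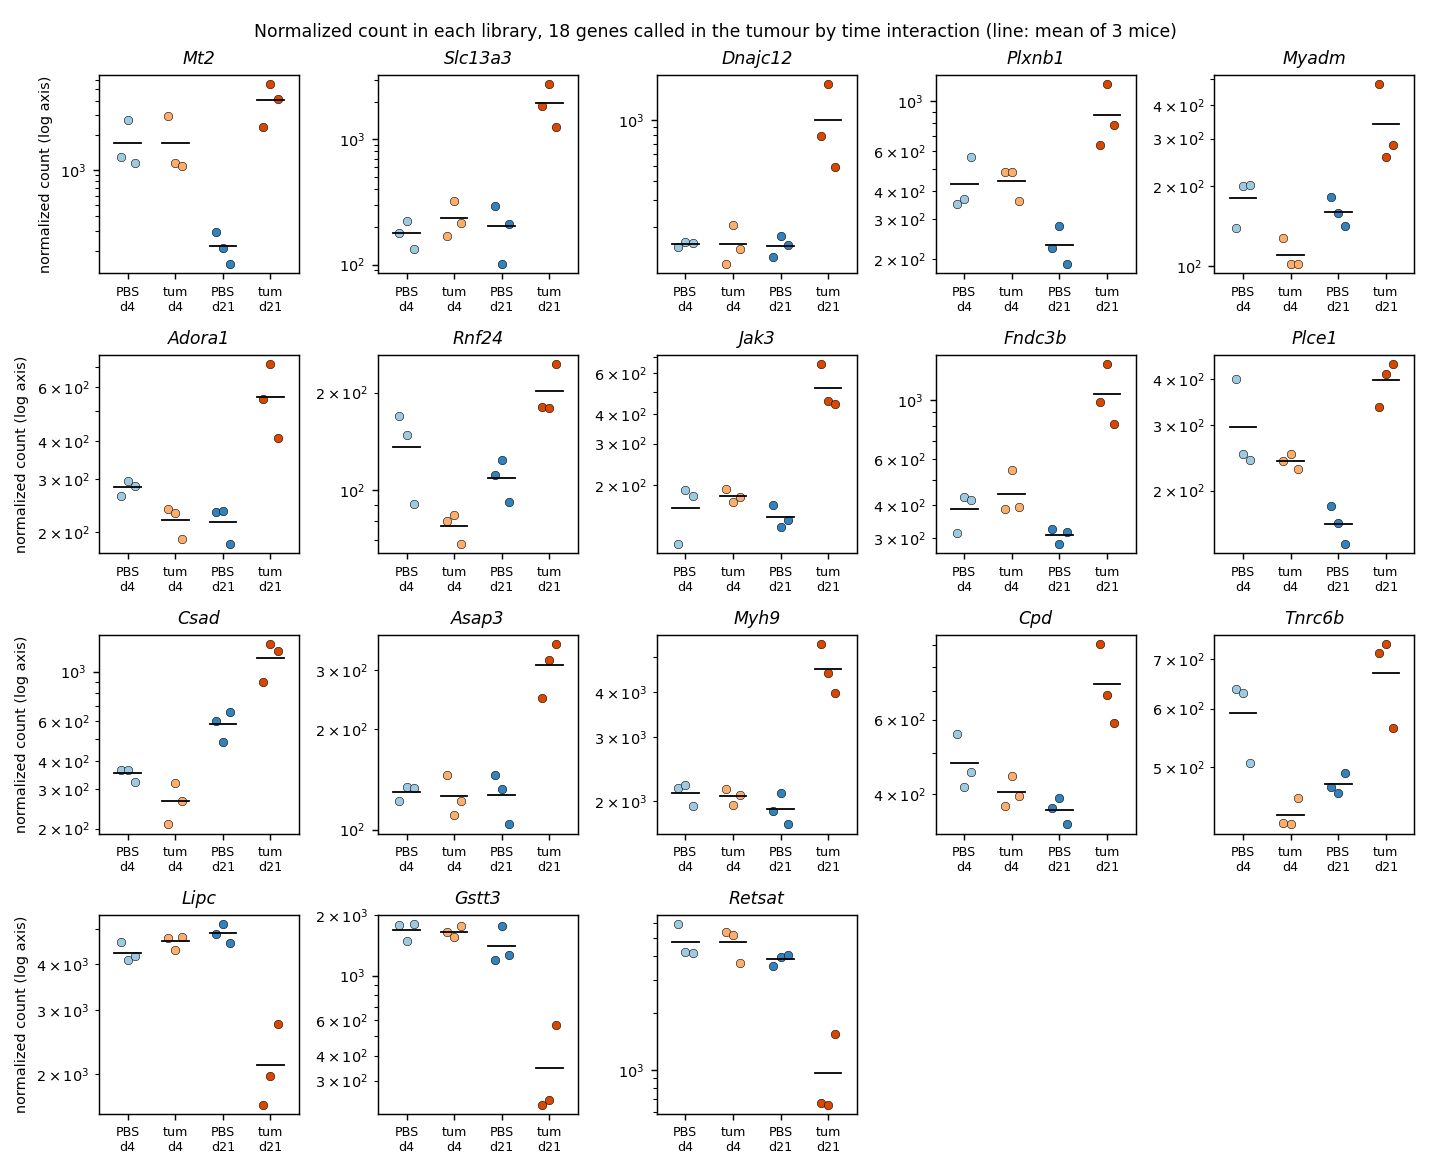
Each of 18 panels shows 1 of the called genes with the normalized count of every mouse on a log axis, grouped as PBS and tumour (tum) at day 4 (d4) and day 21 (d21); lines are means of 3 mice. In 12 panels the tumour mice of day 21 lie above the other 9 mice and in 3, Lipc, Gstt3 and Retsat, below them; Mt2, Plce1 and Tnrc6b overlap the day-4 mice.

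The 3 negative calls were metabolic genes whose tumour values at day 4 were close to 0. Retsat (ENSMUSG00000056666; chr6:72598475-72608425, plus strand), the retinol saturase that makes dihydroretinol, had counts of 5916, 4198 and 4161 in the PBS mice and 5369.9, 5189 and 3684 in the tumour mice of day 4. By day 21 they were 3539, 3962 and 4041 in the PBS mice and 670.4, 653 and 1551 in the tumour mice. Its interaction was -2.12 (SE 0.41, 95% interval -3.02 to -1.22, adjusted p = 0.0456), with -2.13 at day 21 and -0.00 at day 4. Gstt3 (ENSMUSG00000001665; chr10:75774115-75781414, minus strand), a theta-class glutathione S-transferase, had counts of 1779, 1496 and 1809 in the PBS mice and 1659, 1562 and 1759.5 in the tumour mice of day 4. Its day-21 counts were 1194, 1759 and 1275 in the PBS mice and 228, 241 and 567 in the tumour mice. The interaction of Gstt3 was -2.11 (SE 0.40, adjusted p = 0.0456). Lipc (ENSMUSG00000032207; chr9:70798128-70952226, minus strand), the hepatic lipase that trims triglycerides and phospholipids from lipoproteins, had counts of 4606, 4104 and 4211 in the PBS mice and 4730.1, 4382 and 4760.3 in the tumour mice of day 4. Those of Lipc at day 21 were 4851, 5156 and 4587 in the PBS mice and 1651, 1979 and 2746 in the tumour mice. Its interaction was -1.33 (SE 0.25, 95% interval -1.86 to -0.79, adjusted p = 0.0387). In each of the 3 the tumour mice of day 21 lay below all other mice.

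The promoter of Retsat in RefSeq (GRCm38.p6, chr6:72598352-72598651, plus strand) is shown as that of the lowest called gene, with a match to the C/EBP core TTGCNNAA on either strand in capitals:
Retsat: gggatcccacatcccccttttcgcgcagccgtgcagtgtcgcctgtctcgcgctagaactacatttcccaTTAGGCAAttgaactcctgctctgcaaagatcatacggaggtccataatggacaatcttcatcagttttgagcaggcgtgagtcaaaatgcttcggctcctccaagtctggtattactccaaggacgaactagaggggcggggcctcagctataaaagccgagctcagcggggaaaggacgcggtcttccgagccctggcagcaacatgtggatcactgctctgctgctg
Counted in any promoter of a gene, this core was found for 12.2% of RefSeq genes, in 1 of the 3 genes with a negative call and in 3 of the 14 with a positive call. The STAT core TTCNNNGAA, found for 9.55% of genes, was in 0 of the 3 and 0 of the 14.

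The next negative interactions by p missed the threshold. Gstm6, a mu-class glutathione S-transferase, had counts of 1725, 1874 and 1429.6 with PBS and 1279, 1303 and 1910.4 with tumour at day 4, and 1585, 1951 and 2165 with PBS and 656, 705 and 787 with tumour at day 21, with an interaction of -1.22 (adjusted p = 0.0551). Krt23, a keratin, was close to 0 in the tumour mice of day 21, with counts of 0.81, 0 and 5.34 against 86.3 to 179 in the PBS mice of that day. It was also low at day 4, with 19.6 to 43.3 in tumour against 93.6 to 177 in PBS mice, and its interaction was -3.80 (adjusted p = 0.0656), a value that depends on the 1 added before taking logs. Thnsl2 had a tumour value of 0.07 at day 4 and -0.93 at day 21, with an adjusted p of 0.068 for the interaction.

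Acute-phase genes had the highest median interaction of the 41 lists that were not markers of other cells. All but 2 of the 29 members in the set had a positive value, the median was 0.93 against 0.04 over all genes tested, and 16 were positive at an unadjusted p under 0.05, of which Mt2 alone was called. Over all genes tested, 53.2% of values were positive and 9.13% were positive at an unadjusted p under 0.05. Their tumour effect was positive at both times, with a median of 0.62 at day 4 and 1.54 at day 21. The median interaction was 1.12 without mouse 7. Neutrophil marker shares were also highest in the tumour mice of day 21, as given above, and their part in these values was not tested. Hp, haptoglobin, had counts of 31302, 26196 and 27346 with PBS and 48743, 53450.0 and 38614 with tumour at day 4, and 27049, 21794 and 27485 with PBS and 84239, 187614 and 88347 with tumour at day 21. Its tumour mice of day 21 were above all others, and those of day 4 were above all PBS mice, with an interaction of 1.42 (adjusted p = 0.129). Lcn2, the siderophore-binding lipocalin that is also a neutrophil marker, had counts of 318, 295 and 401 with PBS and 1999.9, 3585 and 968 with tumour at day 4, and 402, 69.4 and 369.6 with PBS and 12692, 25195 and 8611 with tumour at day 21. Its day-4 value was 2.50 and its interaction 3.50 (adjusted p = 0.135). Lrg1, a leucine-rich plasma glycoprotein, and the metalloreductase gene Steap4 had interactions of 1.65 (adjusted p = 0.119) and 1.70 (adjusted p = 0.0879). The counts of Steap4 were 2085, 1487 and 1345 with PBS and 2276, 3097 and 1875 with tumour at day 4, and 1616, 1363 and 1169.7 with PBS and 5905, 10374 and 4541 with tumour at day 21. The iron hormone gene Hamp had a negative interaction, -1.02, and Crp stood at -0.05.

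Genes of the IL-6 pathway were ordered from receptor to target. The receptor chain gp130, Il6st, had counts of 2554, 1968 and 2038 with PBS and 1685, 2063 and 1752 with tumour at day 4, and 2246, 2057 and 1969.7 with PBS and 5344, 3384 and 3630.3 with tumour at day 21, with an interaction of 1.20 (adjusted p = 0.0596), and tumour mice of day 21 were above all others. Lifr, the receptor of leukaemia inhibitory factor that pairs with gp130, had a negative interaction of -0.99 (adjusted p = 0.268), with 2914, 3470.2 and 5268 in the tumour mice of day 21 against 8328, 4875 and 7229.6 in the PBS mice of that day. Stat3 had counts of 1752, 1744 and 1729 with PBS and 2025, 2613 and 2351 with tumour at day 4, and 1672, 1713 and 1410.3 with PBS and 3388, 4190.2 and 3702 with tumour at day 21, with an interaction of 0.82 (adjusted p = 0.0969), with tumour values above PBS values at both times. Cebpd, a transcription factor gene induced downstream of STAT3, had an interaction of 2.73 (adjusted p = 0.187), but 1 PBS mouse of day 4, mouse 5 with 382, overlapped the day-21 tumour values of 261 to 729. Over the list of 18 genes, 15 values were positive, 3 passed an unadjusted p under 0.05 upwards and 1 downwards, 0 were called, and the median was 0.49. For the 22 genes of IL-1, TNF and NF-kB signalling the median was 0.21 with 15 positive values, 0.11 without mouse 7 and 0.07 to 0.33 over the 22 alternatives. Myd88, the adaptor of Toll-like receptors, had 0.82 (adjusted p = 0.178), and Nfkbiz, an inducible nuclear regulator of NF-kB, had 0.82 (adjusted p = 0.277).

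**Figure D3:**
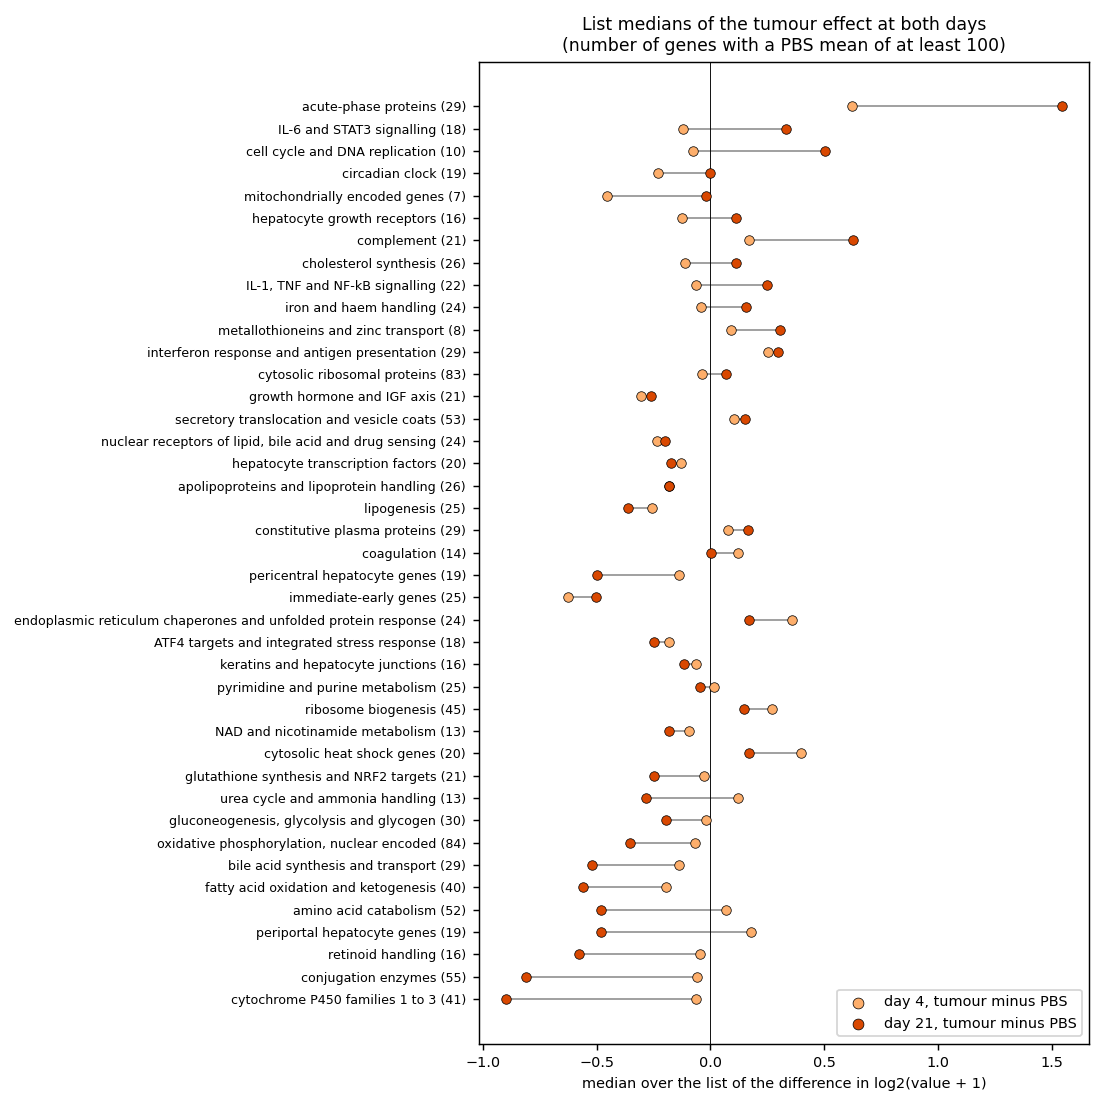
For each of 41 gene lists, with the number of members in the set in brackets, the median tumour minus PBS difference in log2(value + 1) is shown at day 4 (light) and day 21 (dark), ordered by median interaction. Acute-phase proteins stood at 0.62 and 1.54, while cytochrome P450, conjugation and retinoid genes stood near 0 at day 4 and at -0.90, -0.81 and -0.58 at day 21.

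The enzymes of xenobiotic and steroid oxidation had the lowest median of those lists. Of 41 cytochrome P450 genes of families 1 to 3, 38 had a negative interaction and 20 passed an unadjusted p under 0.05 downwards, beside 46.8% and 4.22% of all genes tested. Among the 41, 0 were called, and the median was -0.92, or -0.66 without mouse 7. The median tumour effect was -0.06 at day 4 and -0.90 at day 21. Cyp2c29 had counts of 28486, 30971 and 27253 with PBS and 26138, 27764 and 29041 with tumour at day 4, and 22388, 31878 and 25743 with PBS and 7584, 7511 and 14938 with tumour at day 21, with the tumour mice of day 21 below all others and an interaction of -1.41 (adjusted p = 0.0984). Cyp2c37 (-1.69, adjusted p = 0.0748), Cyp2c50 (-1.08, adjusted p = 0.101) and Cyp2b9 (-1.28, adjusted p = 0.119) were also below in all 3 tumour mice. These genes belong to clusters of near copies, so reads could be divided among them with some error.

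Conjugation enzymes, which attach glutathione, sulphate or glucuronic acid, were close behind. Their median interaction was -0.76 over 55 genes, and Gstt3 was called. Of the 55, 50 were negative and 28 passed an unadjusted p under 0.05 downwards, beside 46.8% and 4.22% of all genes tested. The median tumour effect was -0.06 at day 4 and -0.81 at day 21. Sult2a8, a bile acid sulphotransferase in mouse, had counts of 9443, 9639 and 7426 with PBS and 8400.2, 8621 and 8909 with tumour at day 4, and 8803, 6040.2 and 6254 with PBS and 1787, 1217 and 3414 with tumour at day 21, with an interaction of -1.81 (adjusted p = 0.0787). The esterase gene Ces1e had -1.51 (adjusted p = 0.0867). All tumour mice of day 21 were below the other 9 for both genes.

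Retinoid handling was also mostly negative. Of its 16 genes, 15 had a negative interaction and 7 passed an unadjusted p under 0.05 downwards, beside 46.8% and 4.22% of all genes tested. The median was -0.64. Retsat was called lower, and the 1 gene with a positive interaction was called higher. Aldh1a1, a dehydrogenase that makes retinoic acid, had counts of 13316, 10279.6 and 11625 with PBS and 12218, 13051 and 11009.8 with tumour at day 4, and 11556, 9624 and 11544 with PBS and 4211, 4258 and 7611 with tumour at day 21, with an interaction of -1.13 (adjusted p = 0.131). Aldh1a7, its near copy, had -1.33 (adjusted p = 0.186). The plasma carrier Rbp4 and the retinol dehydrogenase Rdh7 stood at -0.33 and -0.71.

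Mitochondrial and amino acid metabolism leaned the same way with smaller values. Among 52 genes of amino acid catabolism, 45 were negative and 18 passed an unadjusted p under 0.05 downwards, beside 46.8% and 4.22% of all genes tested. The only call was Csad in the opposite direction, and the median was -0.57. Agxt, the glyoxylate aminotransferase, had counts of 4565, 4910.4 and 6639 with PBS and 5839, 5848 and 6269 with tumour at day 4, and 4884, 7978 and 6469.5 with PBS and 2089, 3387 and 2925 with tumour at day 21, with an interaction of -1.38 (adjusted p = 0.0734). For Bhmt, which methylates homocysteine with betaine, the tumour value was 0.55 at day 4 and -0.79 at day 21, with an interaction of -1.35 (adjusted p = 0.192). In fatty acid oxidation and ketogenesis 32 of 40 genes were negative, 11 at an unadjusted p under 0.05, and the median was -0.49. Its extreme member was Cyp4a10, an omega-hydroxylase of fatty acids and target of PPAR-alpha in mouse, with counts of 7083, 4309.6 and 2243 with PBS and 2249, 2702 and 1251 with tumour at day 4, and 4648, 2868 and 7704 with PBS and 132, 31.6 and 448 with tumour at day 21, with an interaction of -4.17 (SE 1.14, adjusted p = 0.135). Those of Etfdh, which passes electrons from fatty acid oxidation to ubiquinone, were 5720.4, 4122 and 5056 with PBS and 4748, 5675 and 4786 with tumour at day 4, and 5243, 4809.7 and 5887 with PBS and 2867, 3154 and 3578 with tumour at day 21, with an interaction of -0.77 (adjusted p = 0.169). Nuclear-encoded genes of oxidative phosphorylation had a small but one-sided shift, 80 of 84 negative with 10 at an unadjusted p under 0.05, beside 46.8% and 4.22% of all genes tested. None was called, and the median was -0.29, with -0.41 to -0.19 over the 22 alternatives and the value nearest 0 without mouse 7. The succinate dehydrogenase subunit genes Sdhb and Sdhd had -0.64 (adjusted p = 0.258) and -0.63 (adjusted p = 0.236). Genes encoded in the mitochondrion itself, 7 in number, had positive interactions throughout, with a median of 0.35. Their median tumour effect was -0.46 at day 4 and -0.02 at day 21. The median interaction was 0.10 without mouse 7 and 0.10 to 0.54 over the 22 alternatives.

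**Figure D4:**
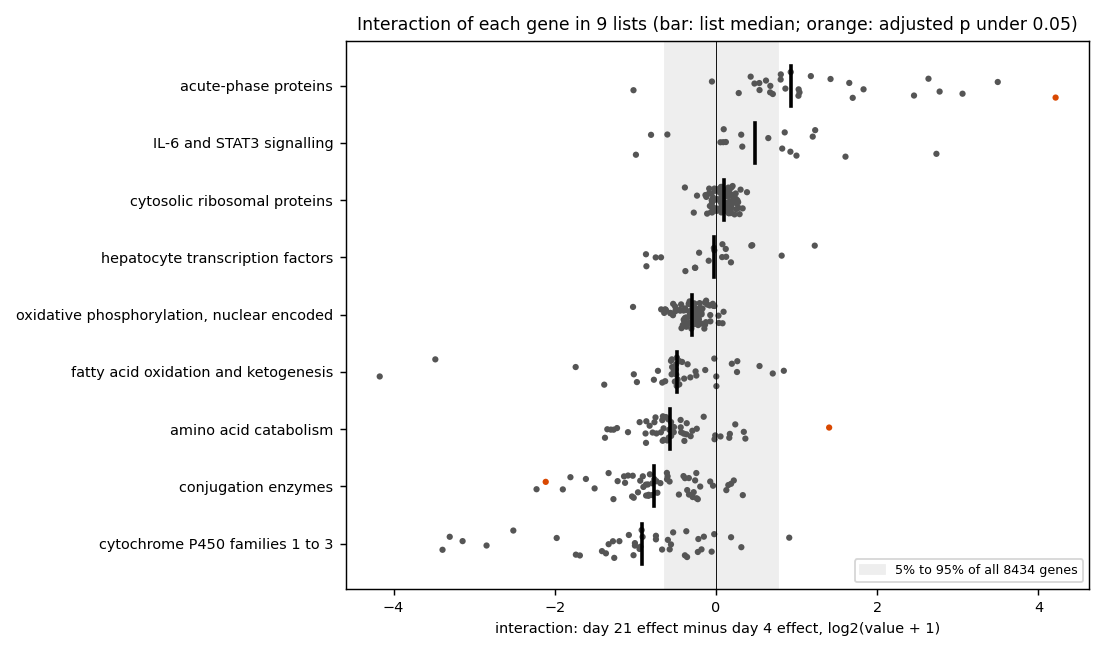
Each point is the interaction, in log2(value + 1), of 1 gene in 9 of the lists; bars are list medians, orange points are called genes, and the grey band spans the 5% to 95% range of all 8434 genes, -0.64 to 0.77. Acute-phase genes reach from -1.02 to 4.21, whereas the ribosomal protein genes stay between -0.39 and 0.39.

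Bile acid, urea cycle and glucose genes had intermediate values. Among 29 genes of bile acid synthesis and transport, 21 were negative and 3 passed an unadjusted p under 0.05 downwards, beside 46.8% and 4.22% of all genes tested. In this list 0 were called, and the median was -0.31, with -0.53 to -0.13 over the 22 alternatives and the value nearest 0 without mouse 7. Slco1a4, an uptake transporter of organic anions, had -0.98 (adjusted p = 0.196). Baat, which conjugates bile acids to taurine or glycine, had -0.83 (adjusted p = 0.218). For Abcb11, the bile salt export pump, it was -1.69 (adjusted p = 0.231). Counts of Abcb11 were 9958, 4438 and 10905 with PBS and 6501, 15782 and 10563 with tumour at day 4, and 6974, 15892 and 12144 with PBS and 3233, 5496 and 5065 with tumour at day 21, so its PBS mice spread widely. In the urea cycle list 8 of 13 genes were negative, with a median of -0.24, or -0.10 without mouse 7 and -0.46 to -0.07 over the 22 alternatives. Otc, ornithine transcarbamylase, had -0.83 (adjusted p = 0.23) with counts of 3670.3, 5301 and 6120.3 in the tumour mice of day 21 against 7876, 9098 and 7228 in their PBS controls. The 30 genes of gluconeogenesis, glycolysis and glycogen had a median of -0.28, with -0.33 to -0.16 over the 22 alternatives, and 0 calls. Ugp2, which makes UDP-glucose for glycogen, had -0.77 (adjusted p = 0.147).

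By liver zone, periportal genes had a median interaction of -0.58 over 19 genes with 15 negative, which was -0.20 without mouse 7 and -0.84 to -0.20 over the 22 alternatives. Pericentral genes had one of -0.09 over 19 with 11 negative, a value whose sign differed in 3 of 22 alternatives. Cyp2f2, the classic periportal marker, had counts of 28405, 17303 and 19997 with PBS and 23877, 26541 and 18394 with tumour at day 4, and 10469, 12849.7 and 8531 with PBS and 1543, 3387 and 7014 with tumour at day 21. Its interaction was -1.74 (adjusted p = 0.223), and all PBS mice of day 21 were below those of day 4, with a value of -1.03 (adjusted p = 0.938).

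The title of the study names HNF4-alpha, and the RNA of Hnf4a did not have a called interaction. Its counts were 11205, 9519 and 9728 in the PBS mice and 10658, 11957 and 13388 in the tumour mice of day 4. Hnf4a at day 21 stood at 10208, 8752 and 10809.5 in the PBS mice and 8304, 10971 and 11284 in the tumour mice. All 4 groups overlapped. The interaction was -0.21 (95% interval -0.74 to 0.33, adjusted p = 0.768). Protein was not measured in these libraries. The 20 hepatocyte transcription factor genes had a median interaction of -0.02, positive in 5 of 22 alternatives including the one without mouse 7 (0.07), with 9 positive and 11 negative members and 0 calls. Gata6 had 1.23 (adjusted p = 0.185) and Foxa1 -0.75 (adjusted p = 0.225). Lipid and drug-sensing nuclear receptor genes, 24 in all, had a median of -0.01, positive in 8 of 22 alternatives including the one without mouse 7 (0.05). Ppara, the receptor gene whose known target Cyp4a10 is given above, had counts of 2954, 2757 and 1757 with PBS and 1191, 1180.0 and 1438 with tumour at day 4, and 2379.9, 1018 and 1560.2 with PBS and 1931, 1927 and 2238 with tumour at day 21, with a positive interaction of 1.32 (adjusted p = 0.143), resting on a day-4 value of -0.94.

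Lipoprotein, growth and cell division genes were mixed. The 26 apolipoprotein and lipoprotein genes had a median of -0.04, which was positive in 6 of 22 alternatives including the one without mouse 7 (0.15), with Lipc called. Lrp1, a remnant receptor, had 0.87 (adjusted p = 0.19). Cholesterol synthesis had 18 of 26 positive values and a median of 0.22, which ran from 0.04 without mouse 1 to 0.50 without mouse 7, with Srebf2, its regulator, at 0.55 (adjusted p = 0.218). Among growth receptors Egfr had 1.90 (adjusted p = 0.276) with counts of 5417, 10813 and 3950.2 in the tumour mice of day 21 against 1730.4, 738 and 1043 in the PBS mice. At day 4 its counts were 2655, 3694 and 1291 with PBS and 5258, 4148 and 1949 with tumour. The tumour values of the 2 days thus overlapped, and the value between PBS days was -1.08. Fgfr3, a fibroblast growth factor receptor, had -0.87 (adjusted p = 0.147). The major urinary protein genes Mup3 and Mup20, which respond to growth hormone in mouse and have near-identical copies, had -1.96 (adjusted p = 0.173) and -1.11 (adjusted p = 0.163). Of 36 cell cycle genes tested, only 10 were in the set. All 10 had positive values, beside 53.2% of all genes tested, with a median of 0.47 and 0 calls. Rrm1, a subunit of ribonucleotide reductase, had counts of 189, 141 and 210.0 with PBS and 175, 229.6 and 185 with tumour at day 4, and 170.0, 153 and 183 with PBS and 704, 244 and 348 with tumour at day 21, and mouse 7, which also had the highest neutrophil marker share, was the highest of the 3 tumour mice.

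The PBS limit did not remove all transcripts of other cells. It kept 2 of 26 neutrophil markers in the table, Lcn2 and Wfdc21, 3 of 15 monocyte markers, 10 of 17 Kupffer cell and macrophage markers, 17 of 18 sinusoidal endothelial markers and 7 of 17 stellate cell markers, and no marker of T and NK cells, B cells, platelets or mammary carcinoma. The 10 Kupffer cell and macrophage markers all had positive interactions, with a median of 1.54. Their median tumour effect was -0.25 at day 4 and 1.29 at day 21, and their median between PBS days was 0.81. The 17 endothelial markers were likewise all positive, with a median of 0.82. For them the median tumour effect was -0.50 at day 4 and 0.33 at day 21, and the median between PBS days was 0.87. Between PBS days the monocyte and stellate cell markers in the set had medians of 0.83 and 1.05. None of these markers was called. Endothelial markers took 0.0350% to 0.160% of reads in the tumour mice of day 21, 0.0541% to 0.0764% in the PBS mice of day 21, 0.0168% to 0.0270% in the tumour mice of day 4 and 0.0184% to 0.0436% in the PBS mice of day 4. Stellate cell and fibroblast markers took 0.0226% to 0.0937% of reads in the tumour and 0.0269% to 0.0445% in the PBS mice of day 21, against 0.00735% to 0.0166% and 0.00748% to 0.0253% at day 4. Their part in the interactions of other genes was not tested.

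**Figure D5:**
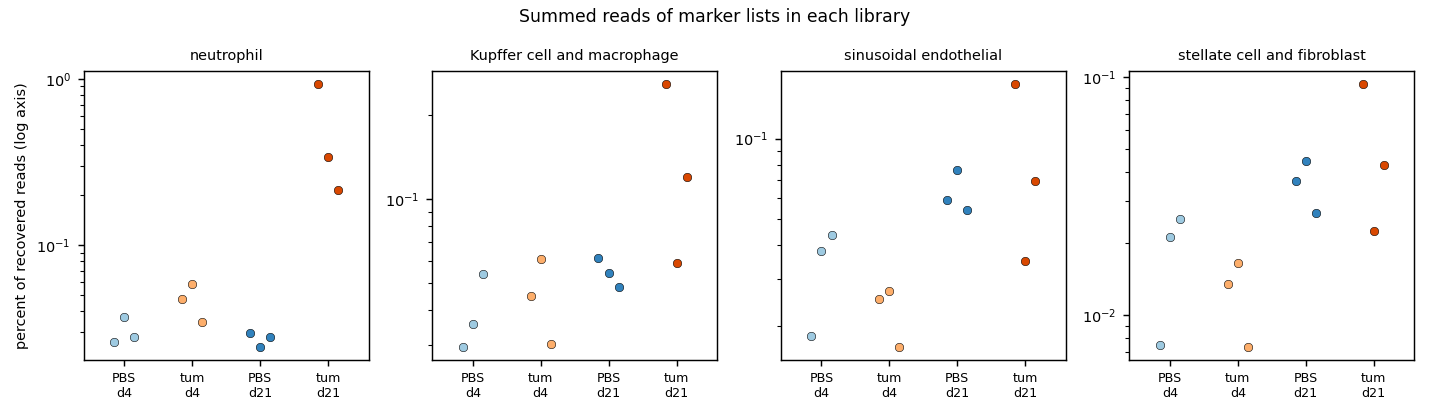
Summed reads of 4 marker lists are shown for every mouse as a percent of its reads, on a log axis that differs between panels. Neutrophil markers separate the 3 tumour mice of day 21 from all others, whereas endothelial and stellate cell markers overlap between PBS and tumour mice at both times.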

How the data were processed

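The deposited table holds signal values for 15910 genes in 12 libraries, normalized counts with one factor per library; the authors used cutadapt, STAR 2.4.2a, HTSeq and DESeq2 with GRCm38, per the submitters' processing notes. How genes were annotated and whether counting used strand is not given in the sources used here. Whole reads were recovered from the steps of each column, at least 99.994% of values lying within 0.1 of a whole number. The table deposited by the authors beside it names thresholds of 0.05 for adjusted p, 0.58 for log2 fold change and 30 for the maximum count.

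The main test was limma 3.58.1 (R 4.3.3; trend and robust) on log2(value + 1), with 1 mean per group, over 12631 genes averaging 10 or more, with calls at a Benjamini-Hochberg adjusted p under 0.05. A pseudocount of 1 shrinks changes of low genes. Positions came from GENCODE M21, matched for 15897 genes. Alternatives were edgeR 4.0.16 and DESeq2 1.42.0 on recovered reads, other pseudocounts, filters, scalings and weights, and leaving out each mouse. Scripts were tested on simulated data.

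The members and lists were chosen with earlier results of these data known. Named were up to 12 called genes each way by size, filled to 6 by p, up to 4 genes of each list by p, and Hnf4a; a few others (Asap3, Myh9, Cpd, Tnrc6b, Hamp, Crp, Rbp4, Rdh7) were named after their values were seen, and 2 genes that the rule names are not reported here. Groups came from the labels, and nothing in them says more than that 3 mice were killed per group. The p-values of limma set a difference of group means against the spread between mice within groups. That spread was estimated jointly over the 4 groups and moderated across genes.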

Additional observations from a re-analysis of the deposited data

Results flagged for a closer look

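By limma's test of the interaction itself, the tumour effect differed between day 21 and day 4 in 16 genes upwards and 3 downwards. These were 0.190% and 0.0356% of the hepatocyte set, beside 0.641% and 0.0475% of all genes tested. The edgeR test called 0 genes of the set, and leaving out mouse 5, 3, 10a, 11a or 12b left 0 calls. Mt2 had an interaction of 4.21, Slc13a3 2.95 and Dnajc12 2.57. Plxnb1 followed with 1.81, Myadm with 1.72, Adora1 with 1.69, Rnf24 with 1.64, Jak3 with 1.60, Fndc3b with 1.56 and Plce1 with 1.54. Csad had 1.40, Asap3 1.33, Myh9 1.31, Cpd 1.18 and Tnrc6b 0.94. The downward interactions were -1.33 for Lipc, -2.11 for Gstt3 and -2.12 for Retsat.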

How the results depend on the processing

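Counts of called genes moved with nearly every choice. The 19 called genes kept their sign in all 22 refits, which was favoured in advance because the refits reuse the values on which the genes were picked. Adjusted p-values for the 19 in these refits ran from 5.74e-07 with DESeq2 to 0.155. Positive and negative interactions, 16 and 3 as reported, became 5 and 1 with a pseudocount of 0.5, 0 and 0 with a mean of at least 50, 0 and 0 with edgeR (862 genes at an unadjusted p under 0.05), 79 and 60 with DESeq2, 36 and 7 with array weights, and 4 and 1 with neither trend nor robust fitting. Without the filter on low values 5 were negative, with a PBS mean of at least 50 also 5, and with a PBS mean of at least 200 there were 9 positive. Leaving out a mouse gave 0 to 26 positive and 0 to 44 negative calls. It left 0 of either without mouse 5, 3, 10a, 11a or 12b, 1 and 0 without mouse 4 or 1, 10 and 1 without mouse 6, 15 and 5 without mouse 2, 10 and 0 without mouse 7, 9 and 0 without mouse 8b, and 26 and 44 without mouse 9a. The count of genes called at day 21, 436 as reported, was 838 with DESeq2 and 929 with array weights, and 129 to 606 on leaving out a mouse, with 260, 173 and 129 without mouse 10a, 11a and 12b and 168 without mouse 7. Day-4 calls were 0 as reported, 1 with DESeq2 and 0 to 3 on leaving out a mouse, with 3 without mouse 6. Calls between PBS days were 0, 5 with DESeq2 and 0 to 14, with 14 without mouse 6. The cause of these moves was not tested, except that fits with fewer mice have fewer degrees of freedom. No paired analysis was possible because the mouse labels are not shared between groups.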

Other observations

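Some lists had a larger tumour value at day 4 than at day 21. The 24 endoplasmic reticulum chaperone and unfolded protein response genes had a median tumour effect of 0.36 at day 4 and 0.17 at day 21, and 19 of them had a negative interaction, with a median of -0.14 and of -0.32 to -0.01 over the 22 alternatives. Hspa5, the chief chaperone of that compartment, had counts of 8924, 7317 and 7352 with PBS and 9997, 17366 and 14406 with tumour at day 4, and 8803, 7311 and 12560.4 with PBS and 12631, 12808 and 9632 with tumour at day 21. Its day-4 tumour mice were above the day-4 PBS mice, but its interaction of -0.48 had an adjusted p of 0.587 in limma. For 45 ribosome biogenesis genes the medians were 0.27 at day 4 and 0.15 at day 21, with 31 negative interactions and a median of -0.15, or -0.20 to -0.01 over the 22 alternatives. Cytosolic heat shock genes, 20 in number, had 0.40 and 0.17, with an interaction median that was positive in 2 of 22 alternatives. No gene of these lists was called in the interaction or at day 4.

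Circadian clock genes had their largest median between the PBS groups. The median over 19 genes was -0.46 from PBS day 4 to PBS day 21, -0.23 for the tumour at day 4 and -0.00 at day 21. A median of differences need not equal a difference of medians. Taken gene by gene, the interaction had a median of 0.45, with 14 positive values and 0 called. That median ran from 0.20 without mouse 4 to 0.63 without mouse 10a. Immediate-early genes, which respond to handling and dissociation of cells, had a median tumour effect of -0.63 at day 4 and -0.50 at day 21. The interaction median of this list was -0.09, with 11 positive and 14 negative values, and it was positive in 5 of 22 alternatives. Klf6, a zinc finger factor of this list, had counts of 126, 113 and 127 with PBS and 60, 78.6 and 71.4 with tumour at day 4, and 153, 188 and 124 with PBS and 503, 219 and 228 with tumour at day 21, with an interaction of 1.73 (limma adjusted p = 0.0721).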
